A study of Mus musculus with 12 samples.

Results

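Oasl2, Fhl2, Ppp1r27 and Bbs10 are the 4 protein-coding genes described here. They were chosen by their calls, that is, each had an m6A methylation peak in the mRNA list of all 3 control libraries and in the mRNA list of 0 of the 3 hypoxia/reoxygenation (H/R) libraries. A total of 10030 genes had a peak in at least 1 of the 6 mRNA lists. This pattern of calls, termed control-only below, was held by 7 genes, 0.0698% of the 10030 and 0.171% of the 4096 genes called in all 3 control lists. The other 3 were the predicted genes Gm10719, Gm17535 and Gm10720, which lie on chromosome 9. These shares depend on list length. For libraries A, B and C the H/R lists held 18706, 13954 and 22038 mRNA peaks, against 12180, 8932 and 7863 in control. With every list held to its 7863 strongest peaks, 85 genes were control-only, and 4 of the 7 were among them. Since presence and absence defined the genes, the missing H/R peaks are no finding, and no test was made of them.

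The cells were cultured neural stem cells (NSCs) of C17.2, an immortalised line from the mouse with wild-type genotype. The control group received no H/R. The H/R group spent 12 h in 5% O2 and was then returned to standard oxygen for 48 h, a model of ischemia and reperfusion. In methylated RNA immunoprecipitation sequencing (MeRIP-seq), RNA fragments are pulled down with an antibody that binds N6-methyladenosine (m6A) and sequenced together with an input that was not selected. There were 3 immunoprecipitates and 3 inputs in each group, 12 samples in all. Each immunoprecipitate with its input gave 1 mRNA, 1 long noncoding RNA (lncRNA) and 1 circular RNA (circRNA) peak list, 18 lists in all, for libraries lettered A to C in each group. Below, values of a group's libraries stand in the order A, B, C. One cell line was used, and nothing in the labels says that the replicates were separate cultures, so the spread between them may be technical.

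N6-methyladenosine is placed on mRNA by a methyltransferase complex at a short consensus and bears on splicing, stability and translation. It is best known from long internal exons and from around the stop codon. Oasl2 belongs to the oligoadenylate synthetase family, interferon-induced enzymes that sense double-stranded RNA. Fhl2 is a LIM-only protein that links the cytoskeleton and transcription factors. Ppp1r27 is a regulatory subunit that inhibits protein phosphatase 1. Bbs10 is a chaperonin-like protein that helps to assemble the BBSome, the coat complex that carries membrane proteins into primary cilia.

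The sequence around the best-known form of the consensus in the control peaks is shown first. The antibody's target could lie at these sites, at other matches to the consensus in the peaks, or at none of them. The consensus searched was DRACH on the transcript strand, in which D stands for any base but C, R for a purine, and H for any base but G. That form is GGACT. The capitals mark GGACT, or, for Fhl2, whose peaks held 0 GGACT, the forms GGACA and GGACC. Each window holds 25 bases of the mouse build GRCm38.p6 (the assembly of mm10), read 5′ to 3′ on the transcript strand. The order is the Oasl2 site at chr5:114911962-114911986 on the plus strand, the Fhl2 sites at chr1:43163808-43163832 and chr1:43163743-43163767 on the minus strand, the Ppp1r27 sites at chr11:120550131-120550155 and chr11:120550084-120550108 on the minus strand, and the Bbs10 sites at chr10:111299291-111299315 and chr10:111299737-111299761 on the plus strand.
Oasl2 3′UTR: cagcggtcctGGACTtaacaagcct
Fhl2 5′UTR, upstream: gccctgcttgGGACAcaaggatcgc
Fhl2 5′UTR, downstream: cagcgcactcGGACCgtggggcgga
Ppp1r27 3′UTR, upstream: cttgccccaaGGACTagagtgccca
Ppp1r27 3′UTR, downstream: aggctggttaGGACTtgtggggaac
Bbs10 coding, upstream: tttactcagaGGACTtcatgcaatc
Bbs10 coding, downstream: tgcttcccagGGACTtttctatgta
The Oasl2 site began 605 bases after the stop codon, and it lay inside the peak of all 3 control lists, as did both Fhl2 and both Bbs10 sites. The Ppp1r27 sites began 61 and 108 bases after the stop codon and lay inside the peak of control C alone, because the peaks of control A and B were shorter.

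A gene's peak was described by its position, its length, its fold enrichment and its p score. The p score is the -log10 of the p from the peak caller MACS, multiplied by 10, and the fold enrichment is a ratio with no unit. Each of the 4 genes had 1 peak in each control list, 12 peaks in all, and each of the 12 had a listed false discovery rate of 100%. That rate was common in the control lists, where 51.2%, 89.1% and 92.8% of the mRNA peaks had it. In the H/R lists A, B and C 0%, 41.7% and 0% had it, so the listed rates differed between the groups. The calls of the 12 peaks therefore rest on the p score, whose lowest value in any control mRNA list was 50.0. The p score was above the median of its list in 2 of the 12 peaks, the fold enrichment in 7 and the length in 6. The medians of the control lists were 322, 254 and 212 for the p score, 21.8, 33.9 and 28.0 for the fold enrichment, and 501.5, 577 and 527 bases for the length.

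Oasl2 (NM_011854, Entrez gene 23962) carried the peak that was placed most alike in the 3 lists. On the plus strand of chromosome 5 the transcript runs from 114896934 to 114912245, with 6 exons and 3136 bases. The peak ran from 114910891 to 114912245 in each control list alike. Its 1355 bases were the whole of exon 6, the last exon, 43.2% of the transcript, with 477 coding bases and all 878 bases of the 3′UTR. The study's own differential analysis lists Oasl2 among its most significantly changed peaks, lower after H/R, at another site. That site lies within the span of the transcript but upstream of exon 6, and no peak of the mRNA lists used here covers it. The p score was 245.31 in control A, 171.25 in control B and 242.83 in control C, above the list median in control C only. Ranked from the highest p score, it stood at 6894 of 12180 in control A, 5524 of 8932 in control B and 3631 of 7863 in control C, or 54.9% ± 7.94 of the way down the list (SD, n = 3). The fold enrichment was 12.24, 24.52 and 32.52, a mean of 23.1 ± 10.2 (SD, n = 3). The 3 values did not keep the order of the p scores, and the rank by fold enrichment moved from 88.5% down the list in control A to 38.5% in control C. By length the peak was among the longer ones, at 21.4% to 23.0% from the longest.

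Fhl2 (NM_010212, Entrez gene 14200) had its peak at the other end of the transcript, in the first exon. The transcript lies on the minus strand of chromosome 1 from 43123071 to 43163961, with 6 exons and 1566 bases, of which the 5′UTR takes 283. The peak ran from 43163702 to 43163961 in control A and C, the 260 bases of exon 1, and from 43163702 to 43163939 in control B, 238 bases or 91.5% of that exon. All of these bases are 5′UTR. The p score was 324.89, 175.61 and 109.47 in the control lists, which put the peak at rank 6060, 5455 and 5585, or 60.6% ± 10.6 down the list (SD, n = 3). Control A alone was above its list median, by a narrow margin. The fold enrichment was 24.34, 35.4 and 34.05, a mean of 31.3 ± 6.03 (SD, n = 3), above the list median in each control library. It was the least variable of the 4 genes in fold enrichment relative to its mean, although the p score of control C was well under that of control A.

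Ppp1r27 (NM_026814, Entrez gene 68701) had the shortest peaks and the highest mean fold enrichment of the 4 genes. The gene is small, with 3 exons and 775 bases on the minus strand of chromosome 11 from 120549975 to 120551132. The peaks shared 1 edge, the 3′ end of the transcript at 120549975, and reached 75 bases from it to 120550049 in control A, 114 bases to 120550088 in control B and 171 bases to 120550145 in control C. All of these bases are 3′UTR, and they made up 21.1%, 32.1% and 48.2% of the last exon. The 75 bases common to the 3 peaks were 43.9% of the 171 bases that any of them covered, the least shared extent of the 4 genes. The p score was 153.18, 233.64 and 104.31, at rank 8370, 4709.5 and 5718, or 64.7% ± 10.6 down the list (SD, n = 3). None of the 3 reached its list median. The fold enrichment was 27.13, 50.0 and 36.45, a mean of 37.9 ± 11.5 (SD, n = 3), above the list median in every control library.

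Bbs10 (NM_027914, Entrez gene 71769) had the longest peaks and the lowest fold enrichment. The transcript runs on the plus strand of chromosome 10 from 111298679 to 111301736, with 2 exons and 2753 bases, nearly all of them in exon 2. The peak began at the first base of that exon, 111299213, in all 3 lists, and ended at 111301716 in control A, 111301710 in control B and 111301736 in control C. It thus measured 2504, 2498 and 2524 bases, 99.2%, 99.0% and 100% of exon 2, with 1957 coding bases and 547, 541 and 567 bases of 3′UTR. By length it stood within the top 6.64% to 7.43% of its lists. The p score was 255.45, 216.42 and 77.67, at rank 6764, 4904 and 6539, or 64.5% ± 16.2 down the list (SD, n = 3). The value of control C was the lowest p score among the 12 peaks. The fold enrichment was 11.81, 24.17 and 13.43, a mean of 16.5 ± 6.72 (SD, n = 3), below the list median in each control library and 76.6% to 96.0% down the list.

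**Figure D1:**
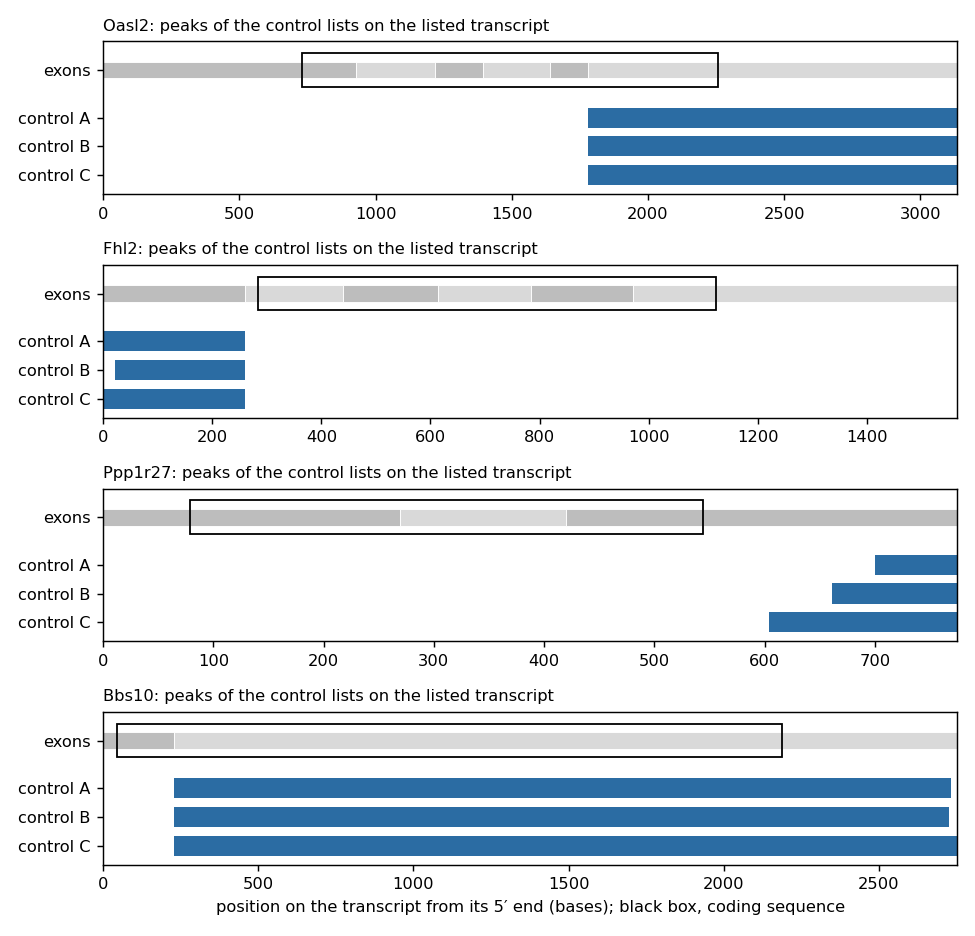
Control peaks on the transcripts of the 4 genes, with the position from the 5′ end in bases on the horizontal axis. Grey blocks are exons, the black box is the coding sequence and blue bars are the control peaks. The Oasl2 and Bbs10 peaks fill their last exon or nearly so, the Fhl2 peak fills the first exon, and the Ppp1r27 peaks of 75, 114 and 171 bases end together at the 3′ end.

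**Figure D2:**
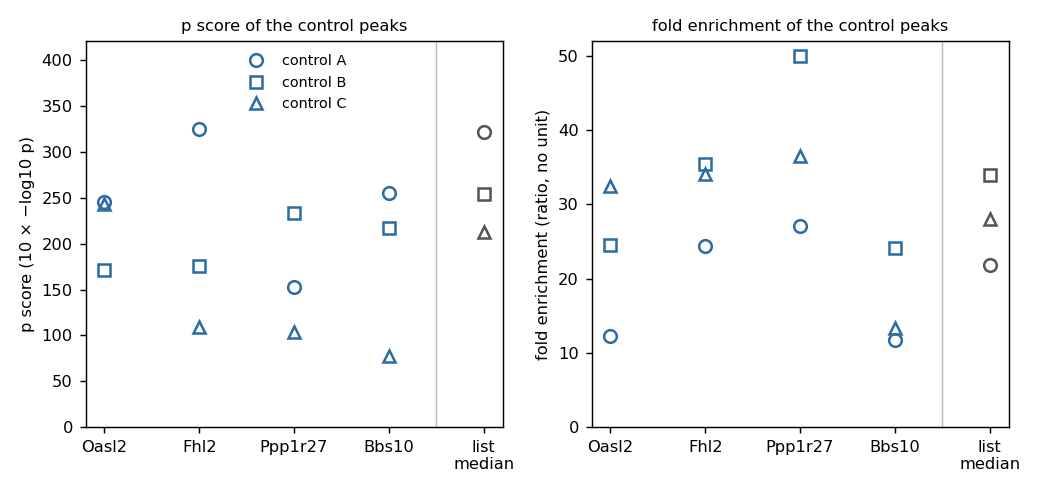
p score (left) and fold enrichment (right) of each gene's peak in the control lists, with the median of all mRNA peaks of the same list in grey. Both axes start at 0, and the H/R lists hold no peak to plot. For Ppp1r27 the p score lies under the list median in all 3 libraries and the fold enrichment above it, whereas for Bbs10 both lie under it.

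The peak edges mostly followed exon edges, in the lists as a whole as in the 4 genes, so they carry limited information. Of the mRNA peaks that lie within a RefSeq exon, 73.2% to 75.5% in the control lists and 66.2% to 80.4% in the H/R lists were whole exons, and 94.8% to 98.7% over the 6 lists touched an exon edge. Each of the 12 peaks described here touched an exon edge, and 6 of them (3 of Oasl2, 2 of Fhl2 and 1 of Bbs10) were whole exons.

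The sequence of the peaks, which the choice of the genes did not use, differed among the 4. DRACH occurred 41 times in the Oasl2 peak, 30.3 per kb, against 20.5 to 20.8 per kb in control peaks whose length was within 10% of it. In the Bbs10 peaks it occurred 65 times, 25.8 to 26.0 per kb, against 20.8 to 21.3 in peaks of like length. The Fhl2 peaks held 7 DRACH sites, 26.9 to 29.4 per kb, against 18.0 to 19.2. The Ppp1r27 peaks, which lie within each other, held 1, 1 and 3 sites, or 13.3, 8.77 and 17.5 per kb. Peaks of like length had 23.4, 23.0 and 20.9 per kb. The rates for peaks of like length carry no spread, and so few sites cannot show whether Ppp1r27 differs from such peaks. GGACT was present in 45.3% to 47.8% of all control peaks on RefSeq transcripts, and among peaks of like length in 80.7% to 84.4% for Oasl2, 22.3% to 27.1% for Fhl2, 5.42% to 14.1% for Ppp1r27 and 87.5% to 90.8% for Bbs10. The GC content was highest in Fhl2, whose peak had 71.2%, 70.6% and 71.2% GC, and 4.31% to 5.44% of all peaks had more. Control peaks of like length had medians of 55.4%, 55.6% and 56.2%. The Fhl2 peak is all 5′UTR, and it was not compared with other 5′UTR peaks. The Oasl2 peak had 46.9% GC and the Bbs10 peaks 42.9% to 43.1%, against list medians of 50.4% to 51.1%. In Ppp1r27 the GC content was 30.7%, 39.5% and 46.2%, higher in the longer peaks, and 99.5% of peaks had more than the 75 bases of control A. A match to a motif is a description of these letters and does not show a methylated base.

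The next question was whether an H/R peak stood at the same place under another name or in another RNA class. No peak of any H/R list overlapped any of the 12 control peaks by 1 base or more, with 0 in the mRNA, 0 in the lncRNA and 0 in the circRNA lists. The control libraries also had 0 lncRNA and 0 circRNA peaks there, so the mRNA peaks of these 4 genes had no counterpart in the other classes in either group. The share of all control mRNA peaks without such a counterpart is not given here. The absence is therefore not shown to be particular to the 4 genes. No H/R mRNA peak lay anywhere within the listed RefSeq transcript span of the 4 genes. The 3 kinds of list came from the same immunoprecipitates, so they are not independent of each other. The nearest lncRNA peak of an H/R list lay 34046 bases from the Oasl2 peak, 1009377 from Fhl2, 45576 from Ppp1r27 and 534996 from Bbs10. The nearest circRNA peak of an H/R list lay 4154125, 608182, 116847 and 1445679 bases away in the same order.

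The nearest mRNA peaks differed from gene to gene. Around Oasl2 the closest was in 2210016L21Rik, 29913 bases away, from 114942158 to 114942355, and it was called in all 6 lists. Its fold enrichment was 47.93, 49.17 and 43.24 in the control lists. In the H/R lists it was 30.56, 29.73 and 31.09. The fold enrichment was thus lower after H/R, as over whole lists, whose H/R medians were 9.34, 15.5 and 10.05. The p score was 369.84, 124.35 and 122.2 in the control lists and 829.44, 321.91 and 1242.94 in the H/R lists. It was higher in H/R A and C than in any control list. As a peak of another transcript, it gives no measure of calls at Oasl2.

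Near Fhl2, a peak listed under Rpl29, a ribosomal protein, lay 25160 bases upstream of the transcript start, from 43189121 to 43189758. It was called in control A and C with a fold enrichment of 50.42 and 11.22, and in every H/R list with 8.71, 29.09 and 27.12, while control B had none there. It falls within the span of Fhl2 in GENCODE vM21, from 43123074 to 43196984, but on 0 of the exons that GENCODE gives Fhl2. Ribosomal protein genes have near-identical copies elsewhere in the genome. The study used uniquely mapped reads only, and the part of such copies in these calls was not tested.

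Ppp1r27 had the closest H/R neighbour. Fam195b, whose protein binds a transcriptional corepressor, follows Ppp1r27 on the minus strand, and the first of its 5 exons, from 120549657 to 120549727, lies downstream of the 3′ end of Ppp1r27. All 3 H/R lists had a peak on that exon, with the nearest edges 248 bases apart in H/R A and B and 256 in H/R C. Its fold enrichment was 19.77, 27.23 and 25.39, and its p score was 750.45, 619 and 2043.85, above the list median each time. H/R A and B held a second Fam195b peak further along the gene. The control lists had 0 Fam195b peaks, and the control peak nearest to Ppp1r27 was at least 50329 bases away. At this place the 3 control lists therefore held the 3′ end of the upstream gene and the 3 H/R lists the first exon of the next gene, without overlap. Whether the calls on the 2 genes are related was not tested.

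Bbs10 also followed a gene that was called after H/R only. Osbpl8, a lipid transfer protein of the endoplasmic reticulum, had a peak on exon 23 of its 24 exons, from 111291491 to 111291593, 7620 bases from the Bbs10 peak and on the same strand. The fold enrichment was 4.31, 5.24 and 4.3, under the lowest fold of any control mRNA peak in control A (4.99) for H/R A and C, and under the 8.07 and 7.06 of control B and C for all 3. The control lists had 0 Osbpl8 peaks, and the control peak nearest to Bbs10, in Phlda1, lay 204550 to 204688 bases away. Fam195b and Osbpl8 were each called in 3 H/R and 0 control lists, as were 497 genes or 4.96% of the 10030.

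**Figure D3:**
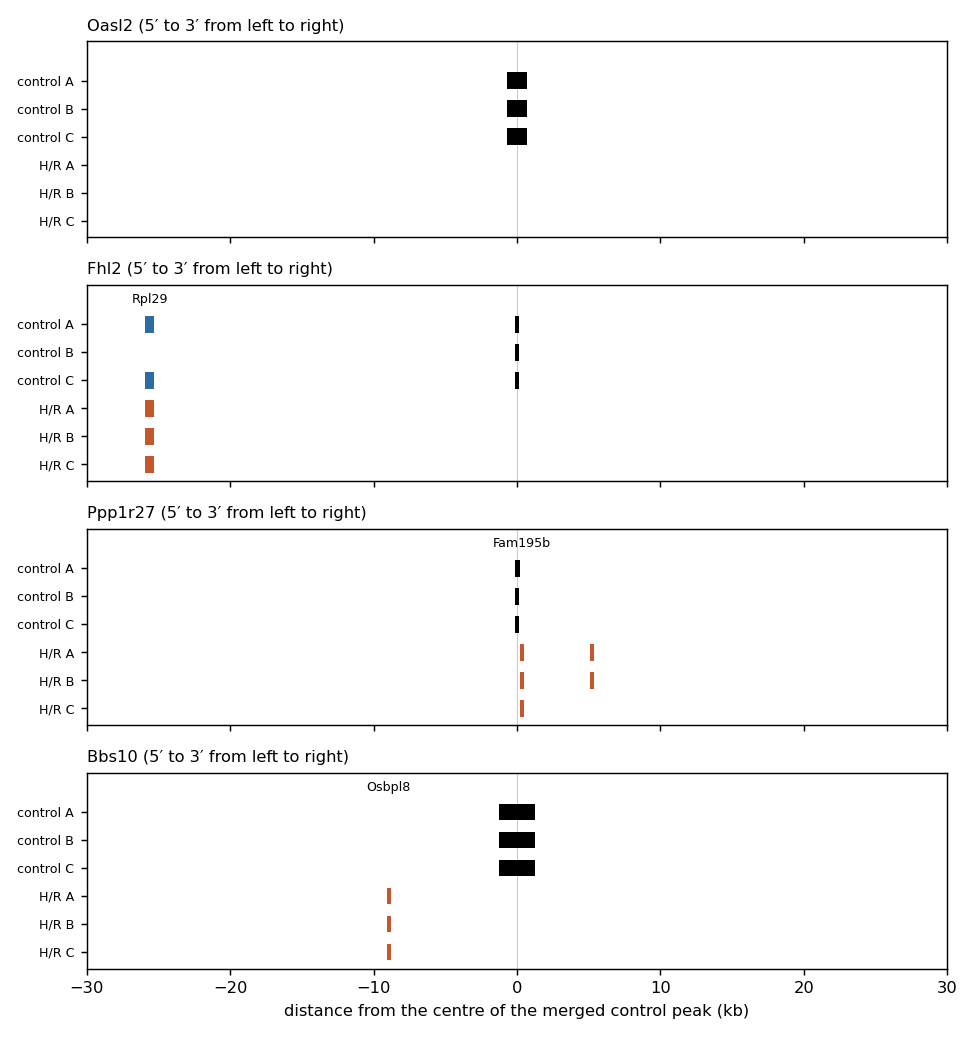
mRNA peaks of the 6 lists within 30 kb of the 4 genes' peaks, with the distance from the centre of the merged control peak in kb on the horizontal axis and each gene drawn 5′ to 3′. Black bars are peaks of the named gene, blue bars other control peaks and orange bars H/R peaks, and the shortest bars are widened to be visible. No H/R bar lies under a black one, and the nearest is that of Fam195b beside Ppp1r27.

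How such peaks fared in general can be read from the control lists as a whole. Of all control mRNA peaks, 484 of 12180 in control A (3.97%), 172 of 8932 in control B (1.93%) and 160 of 7863 in control C (2.03%) had no H/R mRNA peak at the same place in any list, and the 4 genes hold 4 of these in each list. The share fell with the p score, with each list split by it into 4 bins of equal size. In control A it was 9.92% in the lowest bin and 3.68%, 1.64% and 0.657% in the following ones. The lowest and highest bins had 3.9% and 0.672% in control B, and 3.46% and 1.12% in control C. A peak list states no level where no peak was called. From the peak lists alone, less Oasl2, Fhl2, Ppp1r27 or Bbs10 RNA, fewer methylated copies of it and a changed call background cannot be told apart. Nor can fewer cells that make the RNA and less RNA per cell. The study also measured mRNA levels by RNA sequencing, and those results were not used here.

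Genes whose calls differed from the control-only pattern in 1 list were also counted. Among the 7 control-only genes, ordered by the lowest control p score, Gm10719 had 412.91, Gm17535 171.61, Oasl2 171.25, Fhl2 109.47, Ppp1r27 104.31, Bbs10 77.67 and Gm10720 74.18. Called in all 3 control lists and in 1 H/R list were 27 genes, of which the single H/R call was made by H/R A in 9, by H/R B in 5 and by H/R C in 13. The 4 with the highest lowest control p score were Rpsa (3100), Stk16 (2109.11), Gmpr2 (1241.1) and Gm10335 (1156.07). They were picked for that value, and the 27 ran down to 50.65 in Gm17669, below the 4 genes described here. In their single H/R list, Rpsa, Stk16, Gmpr2 and Gm10335 each had a p score of 3100. The folds there were 39.6, 73.83, 65.84 and 16.66, so their H/R calls were not weak ones. Called in 2 control lists and in 0 H/R lists were 33 genes, which lacked the call of control A in 19 cases, of control B in 8 and of control C in 6. They were led by Rpl10-ps3 (3100), Chl1 (2146.11), 4930467E23Rik (701.26) and Gm10273 (649.71), the first a copy of a ribosomal protein gene. The number of control-only genes was 26, 15 and 13 with 1 control library left out in turn, and 16, 12 and 20 with 1 H/R library left out. Dropping a library can only add genes to this count, and the 4 genes stay in it by construction. With a p score of at least 100 in every list, Bbs10 was no longer control-only, and with all lists held to 7863 peaks Ppp1r27 was not.

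The wider gene families were described from lists without the 4 genes. Over all genes, 5462 ± 908 were called per control library and 7896 ± 1164 per H/R library (SD, n = 3 each), with a two-sided exact permutation p of 0.1, and that difference is the background for each family. With 3 libraries against 3, 0.1 is the smallest p that this test allows, so no comparison could pass 0.05.

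Oasl2 was set beside 46 genes of the oligoadenylate synthetases and the interferon response, of which 30 had a peak in at least 1 list. The control libraries called 19, 15 and 11 of them and the H/R libraries 25, 19 and 22, or 15.0 ± 4.0 against 22.0 ± 3.0 (SD, n = 3 each, exact two-sided permutation p = 0.2, adjusted p = 0.267 over 4 lists). The groups touched at a count of 19. Called in all 6 lists were 8, led by Xaf1, a pro-apoptotic interferon target with 3 peaks in every list, Ifnar2, a subunit of the type I interferon receptor, Isg15, a ubiquitin-like modifier, and, with equal means, Mavs, the adaptor of RNA sensing, and Adar, an RNA-editing enzyme. The pattern opposite to that of Oasl2 was held by 1 gene, Usp18, which removes Isg15 from proteins, with a fold enrichment of 10.61, 16.94 and 10.43. Ifit3 and Trim25, an antiviral effector and a ubiquitin ligase of RNA sensing, each had 1 control and 3 H/R calls. The close relatives of Oasl2 gave few calls. Oas1b was called in control A only, with 2 peaks of highest fold 24.55, Oas1c and Oas3 in H/R A only, with folds of 3.28 and 4.34, and Oasl1, Oas1a and Oas2 in no list.

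Fhl2 was set beside 49 LIM domain genes, of which 26 had a peak. They were called 19, 17 and 12 times in the control lists against 22, 15 and 25 times after H/R, or 16.0 ± 3.61 against 20.7 ± 5.13 (SD, n = 3 each, exact two-sided permutation p = 0.3, adjusted p = 0.3), and the groups overlapped. The difference of 4.67 genes was 2.67 if control C was left out, 7.5 without H/R B and 2.5 if H/R C was left out. Fhl3, a close relative, was called in control A and B (fold 9.72 and 18.93) and in H/R A and C (7.96 and 11.27). Fhl1, Fhl4 and Fhl5 were called in no list. The 12 genes called in all 6 lists were led by Mical3, Lmo7, Micall1 and Lasp1, which act on actin or membrane traffic. Fblim1, a filamin-binding adaptor, was called in the 3 H/R lists only, with folds of 9.48, 9.94 and 7.5, and Pxn, the adhesion scaffold paxillin, in control B (18.95) and in each H/R list (5.87, 9.6 and 8.9).

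Ppp1r27 was set beside 46 genes of protein phosphatase 1, of which 27 had a peak. The control libraries called 22, 20 and 20 and the H/R libraries 25, 23 and 26, or 20.7 ± 1.15 against 24.7 ± 1.53 (SD, n = 3 each, exact two-sided permutation p = 0.1, adjusted p = 0.267). The groups did not overlap, as for all genes. The catalytic subunits gave little, with Ppp1ca and Ppp1cb in no list and Ppp1cc in 2 H/R lists (fold 7.6 and 8.46). In all 6 lists were 16 regulatory genes, led by Phactr2, Ppp1r9a, Ppp1r12a and Phactr4, which had 9.33, 7.5, 7.33 and 6.83 peaks per list on average and bind phosphatase 1 at actin or myosin. Ppp1r21 was called in the 3 H/R lists only, with folds of 3.72, 12.96 and 12.44. Ppp1r14b, an inhibitor subunit like Ppp1r27, was called in control A (19.62) and in each H/R list (12.15, 12.3 and 23.43).

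Bbs10 was set beside 30 genes of the BBSome, its transport partners and the chaperonins, of which 15 had a peak. They were called 10, 9 and 7 times in the control lists against 14, 10 and 13 times after H/R, or 8.67 ± 1.53 against 12.3 ± 2.08 (SD, n = 3 each, exact two-sided permutation p = 0.2, adjusted p = 0.267). The groups touched at a count of 10. Of the other chaperonin-like genes of the complex, Bbs12 was called in control A and B and in all 3 H/R lists, and Mkks in no list. Of the BBSome subunits, Bbs1 was called in all 6 lists and Bbs5 in the 3 H/R lists only (fold 7.12, 14.17 and 5.45). Bbs2 and Bbs4 were called in 1 H/R list each, and Bbs7, Bbs9, Ttc8 and Bbip1 in none. The chaperonins Tcp1, Cct2, Cct3, Cct4, Cct5, Cct6a, Cct6b, Cct7 and Cct8 were called in no list. The 7 genes in all 6 lists were led by the centrosome gene Cep290, with 18, 13 and 10 peaks in the control lists against 19, 19 and 22 after H/R, followed by Sdccag8, Rab8a and Ift27.

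In each of the 4 lists 0 genes were control-only and 1 was called in the 3 H/R lists only, or 3.33%, 3.85%, 3.7% and 6.67% of those with a peak, near the 4.96% of all genes. With 0.0698% of all genes control-only, 0 in lists of this size is the background and says nothing particular about the relatives. The comparison of group means depended on list length. With every list held to 7863 peaks the H/R minus control difference was -1.0 for the interferon list, -0.333 for the LIM domain and the phosphatase list and 0 for the BBS list, so that the higher H/R counts were not seen there.

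**Figure D4:**
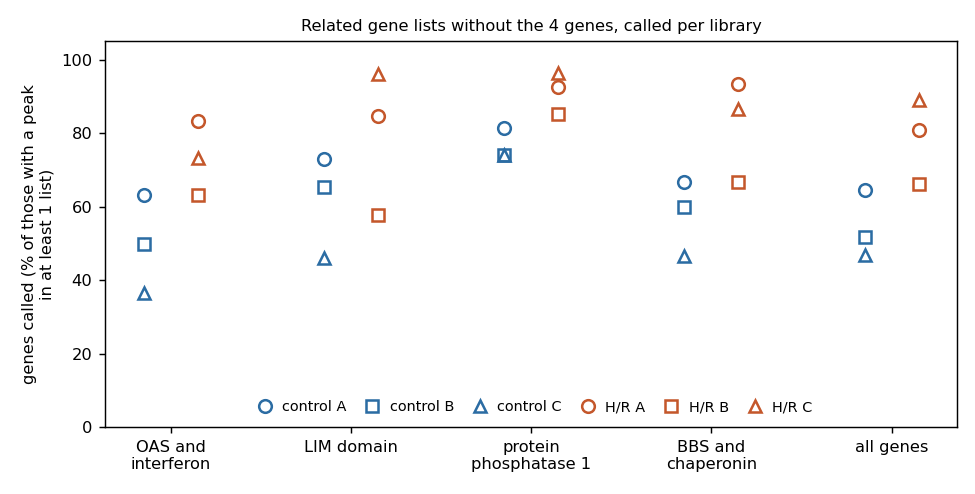
Share of each related gene list called in each library, in percent of the list's genes that have a peak in at least 1 list, with the axis from 0 and 1 symbol per library letter. Control is blue and H/R orange. In the phosphatase list and over all genes every H/R library lies above every control library, while in the other lists the groups touch or overlap.

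The peak lists were also checked for cell type markers, with the limit that they list peaks and not RNA levels. Nes, Sox2 and Notch1, markers of neural stem cells, had peaks in all 6 lists, Hes1 in the 3 H/R lists only and Msi1 in 2 H/R lists, and Vim, Pax6, Fabp7 and Prom1 had none. Of 15 markers of other cell types 3 had a peak. Among them, the neuronal Map2 was called in control A and C and in all 3 H/R lists, and the astrocyte gene Gfap in control B and C only, with a highest fold of 42.67. The bearing of these calls on the 4 genes was not tested.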

How the data were processed

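Per the labels and the study's methods, the authors immunoprecipitated fragmented total RNA with an m6A kit, trimmed reads with cutadapt (version 1.9.3), aligned them with HISAT2 (version 2.0.4) to mm10, called peaks per library with MACS (version not given in the sources used here) against the input, and used in-house software to select and annotate the peaks on exons. The study's methods also name STAR for aligning the input reads. That peaks end at exon edges was found from the deposited coordinates. Each list comes from 1 library, without pooling. For each peak the deposited values are a fold enrichment (a ratio), a p score (10 times -log10 p) and a false discovery rate in percent. The lists give no read depth, so the depth behind each call is unknown here and no interval that needs it was given. Nothing ties the library letters A to C to the labels' replicate numbers.

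A gene counted as called if a peak of the library's mRNA list carried its symbol. Peaks were ranked within their list, with the mean rank for ties, set against each other by an overlap of at least 1 base, and placed on RefSeq transcripts of GRCm38.p6 and on GENCODE vM21 spans. For each related list, the number of genes called per library was tested between groups by exact permutation (two-sided), with Benjamini-Hochberg adjustment over 4 lists. Computation used Python 3.11.15, pandas 2.3.3, numpy 2.4.6 and pysam 0.24.0, and the counting and the permutation test were tested on simulated data.

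The 4 genes and all gene lists were chosen with earlier results of these data known. Named besides the 4 were genes with the same calls in the 6 lists, list genes called in every list of 1 group and at most 1 of the other, up to 4 per list called in all 6 with the most peaks, and the 4 with the highest lowest control p score of each pattern that differed in 1 list. Family relatives, marker genes and the nearest peaks are given as well. Some genes that the rule names are not reported here. Alternatives were a minimum p score of 100, a minimum fold of 10, lists of equal length, calls by place, an overlap of at least 50% of the peak, ranks by fold and leaving out each library.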

Additional observations from a re-analysis of the deposited data

How the results depend on the processing

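No paired analysis was possible because the libraries carry letters that the labels do not tie to their replicate numbers. The number of the 4 genes that were control-only was 3 with a p score of at least 100 (Bbs10 lost), 3 with lists of equal length (Ppp1r27 lost) and 4 under each of the other alternatives. The count of all control-only genes was 38 with a fold of at least 10 and 85 with lists of equal length, of which 7 and 4 were among the original 7. It ranged from 12 to 26 when a library was left out, and was 6 with a p score of at least 100 and 9 by place. H/R peaks at the place of the 12 peaks numbered 0, and the alternatives tried, all stricter, could give no other value, so they are no check of it. Ranked by fold, the mean position from the top was 67.5% for Oasl2, 41.6% for Fhl2, 31.0% for Ppp1r27 and 87.6% for Bbs10. Without a control library, the position by p score ran from 51.4% to 59.2%, 55.5% to 66.0%, 60.7% to 70.7% and 55.2% to 69.3% in the same order. The H/R minus control difference in genes called was, with lists of equal length, -1.0 for the interferon list, -0.333 for the LIM domain list, -0.333 for the phosphatase list and 0 for the BBS list (exact permutation p of 0.9, 1.0, 1.0 and 1.0). With a fold of at least 10 it was 2.33, -0.667, 0.667 and -0.667 in the same order (exact permutation p of 0.5, 1.0, 0.7 and 0.8). That minimum is far below the median of each control list and close to or above that of H/R A and C, so it does not treat the groups evenly. With a library left out the difference ran from 5.0 to 9.0, 2.5 to 7.5, 3.33 to 4.83 and 2.83 to 4.83 genes. The causes of these changes were not tested.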
